A study of Mus musculus with 32 samples.

Results

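The genes described here are Nnat and 9 other imprinted genes, Peg3, Plagl1, Ndn, Snrpn, Meg3, Rian, Impact, Grb10 and Igf2, 10 of the 55938 genes in the deposited table of the mouse lumbar spinal cord. They were found by their gene symbols, and each of the 10 symbols matched a single row. The set was chosen by earlier results of these data: Nnat was selected on its higher level in astrocyte ribosome libraries 3 weeks after fracture, so its values in that comparison are given as a description with no test. The other 9 genes were grouped with Nnat as imprinted genes, and since it is not known which results chose each of them, their values in that comparison are a description as well. An antibody to HA was used to pull ribosomes and their RNA out of spinal cord homogenate of Aldh1l1-CreER; Rpl22-HA mice, in which Cre under the Aldh1l1 promoter, active in astrocytes, turns on an HA-tagged ribosomal protein. These libraries are named Trap. Input libraries hold RNA of every cell type of the same kind of homogenate. All groups carry both transgenes, uninjured ones included. The injured groups had a fracture 3, 5 or 7 weeks earlier, as a model of complex regional pain syndrome, and the uninjured groups had none. In each of the 4 states, each sex was sampled with 3 Trap libraries and 1 Input library, which makes 24 Trap and 8 Input libraries. Age, strain and the dosing that activates CreER are not given in the sources used here, and no label ties each library to its own animal. P-values therefore cover only how far these libraries differ from each other, which may be technical.

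Imprinted genes are expressed mainly from a single parental allele, which is set in the germ line by methylation of control regions and kept through development. Many lie in clusters under a shared control region, and many act on fetal growth, metabolism and the differentiation of neurons. Nnat encodes neuronatin, a small membrane protein of the endoplasmic reticulum that is expressed from the paternal allele and is known from developing neurons, pancreatic beta cells and fat. It resembles phospholamban, a regulator of the SERCA calcium pump. The counts used here do not separate the parental alleles, so they show levels and not imprinting.

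In GRCm38 with GENCODE M21 genes, Nnat (ENSMUSG00000067786.16) lies on the plus strand of chromosome 2 at 157560078 to 157562522, inside an intron of Blcap, which runs the other way from 157571274 to 157556362 and shares 0 exon bases with it. Peg3 (ENSMUSG00000002265.16) lies on chromosome 7 at 6703892 to 6730431, minus strand. Ndn and Snrpn belong to another cluster of chromosome 7, with Ndn at 62346569 to 62350262 (plus strand) and Snrpn at 59982495 to 60140219 (minus strand). Igf2 lies apart from both on chromosome 7, at 142650766 to 142666816, minus strand. Meg3 (109541001 to 109571726) and Rian (109603940 to 109661716) are neighbouring noncoding genes on the plus strand of chromosome 12. Plagl1 lies on chromosome 10 (13060504 to 13131694, plus strand) and Grb10 on chromosome 11 (11930508 to 12038683, minus strand).

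The promoters of Nnat, the gene with the highest level per length in Trap, and of Peg3 and Meg3, whose levels moved together between libraries, are shown for their CpG content, because CpG dinucleotides are the sites at which imprinted regions are methylated. The windows run from 250 bases before to 50 bases after the start given by RefSeq for GRCm38.p6, 5′ to 3′ on the strand of the gene, with each CpG in capitals. They are chr2:157559828-157560127 (plus strand) for Nnat, chr7:6730370-6730669 (minus strand) for Peg3 and chr12:109540746-109541045 (plus strand) for Meg3.
Nnat: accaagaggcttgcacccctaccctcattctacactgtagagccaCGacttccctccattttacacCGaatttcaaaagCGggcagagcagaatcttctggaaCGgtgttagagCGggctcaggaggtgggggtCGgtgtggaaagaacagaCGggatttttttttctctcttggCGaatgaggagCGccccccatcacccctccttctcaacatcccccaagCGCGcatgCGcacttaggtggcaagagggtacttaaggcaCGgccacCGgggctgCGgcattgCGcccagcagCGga
Peg3: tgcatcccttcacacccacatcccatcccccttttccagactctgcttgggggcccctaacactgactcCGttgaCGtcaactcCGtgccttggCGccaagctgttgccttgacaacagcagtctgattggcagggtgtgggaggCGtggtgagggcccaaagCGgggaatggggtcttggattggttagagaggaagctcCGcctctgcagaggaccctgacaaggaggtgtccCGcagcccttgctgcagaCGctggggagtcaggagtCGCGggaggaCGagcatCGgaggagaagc
Meg3: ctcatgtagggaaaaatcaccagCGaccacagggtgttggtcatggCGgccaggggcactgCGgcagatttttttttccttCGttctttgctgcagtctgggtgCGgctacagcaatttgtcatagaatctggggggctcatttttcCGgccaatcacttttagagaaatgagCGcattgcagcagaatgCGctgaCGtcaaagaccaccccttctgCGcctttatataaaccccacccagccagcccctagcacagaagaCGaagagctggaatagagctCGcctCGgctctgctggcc
The Nnat window held 17 CpG and 57.3% G or C, more CpG than 68.6% of 32851 promoter windows of the same length, whose median was 7 CpG and 52.7% G or C. The Peg3 and Meg3 windows each held 13 CpG, more than 62.1% of those windows, while a second Meg3 start in RefSeq, at chr12:109545148-109545447, held 1 CpG, more than 5.43% of them. Among the other members, apart from Impact, whose window was not counted, the count ran from 0 CpG at Rian to 45 at the upstream Grb10 start. No methylation was measured here, so these counts describe the sequence alone.

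The 24 Trap libraries held 17124000 to 23189200 estimated counts each and the 8 Input libraries 17981100 to 22907900. All 12 astrocyte markers were higher in Trap than in Input (median log2 3.29), while all 16 neuron markers (-3.99), 11 microglia markers (-4.05), 10 oligodendrocyte markers (-2.56) and 8 endothelial markers (-2.81) were lower. Markers of oligodendrocyte precursors were mixed, with Olig1 and Olig2 higher in Trap and the other 4 lower. For some other cell types the summed level of the markers is given, and it was not lower in Trap. A sum does not show the direction of each gene. The precursor sum ran from 762 to 1340 CPM in Trap and from 348 to 427 CPM in Input, although 4 of its genes were lower in Trap. Summed blood cell markers had a median of 1418 CPM in Trap and 257 CPM in Input. Mural cell markers had 172 and 70.3 CPM, and ependymal markers 72.4 and 38.6 CPM, with no overlap for any of these lists. Schwann cell markers (153 and 108 CPM) and fibroblast and meningeal markers overlapped between the fractions. The part of these cells in the Nnat level was not tested. Female 3 weeks Trap replicate 3 stood apart, with the lowest astrocyte marker sum (46475 CPM) and the highest neuron marker sum (1264 CPM) of the Trap libraries. Female 7 weeks Trap replicate 3 had the next highest neuron sum, 1054 CPM, against 406 to 1021 CPM in the other 22. Male 7 weeks Trap replicate 2 correlated least with the mean of the other Trap libraries. In bulk RNA, fewer cells of a type and less RNA per cell cannot be told apart.

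Nnat was the only member higher in Trap than in Input, and the other 9 were all lower. Its level, in TMM-scaled CPM (counts relative to the library total), averaged 384 ± 75.9 CPM in Trap (SD, n = 24) and 73.5 ± 15.3 CPM in Input (SD, n = 8), a 5.23-fold ratio of means. The lowest Trap library had 298 CPM and the highest Input library 102 CPM, so the fractions did not overlap. The fitted log2 difference was 2.38 ± 0.072 (adjusted p = 4.76e-27, edgeR quasi-likelihood test with Benjamini-Hochberg adjustment, all 32 libraries with sex and state as terms). Such a difference was common in this comparison, in which 88% of the 16804 genes tested passed an adjusted p of 0.05, 43.8% higher and 44.2% lower in Trap. Blcap, the gene around Nnat, had 54.9 ± 6.10 CPM in Trap and 79.5 ± 10.4 CPM in Input and was lower in Trap by a log2 difference of -0.53. The counting was not stated to use strand, but the pair shares no exon.

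**Figure D1:**
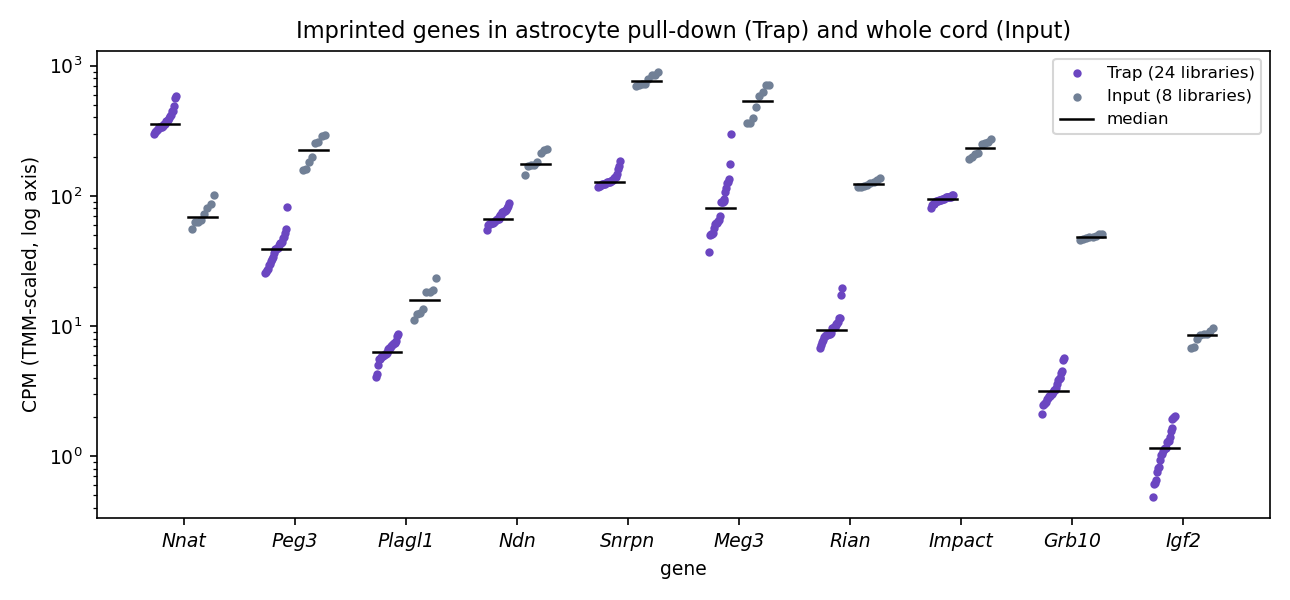
Level of each of the 10 genes in Trap (24 libraries) and Input (8 libraries), in CPM on a log axis, with 1 point per library and a bar at the median. Nnat sits higher in Trap, at 298 to 581 CPM against 55.5 to 102 CPM in Input, and the other 9 genes sit lower in Trap with no overlap between the fractions.

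Among the nuclear regulators and growth suppressors, Peg3, a zinc-finger protein, averaged 39.7 CPM in Trap and 224 CPM in Input, a log2 difference of -2.48 ± 0.12. Plagl1, a zinc-finger factor that restrains the cell cycle, had 4.07 to 8.73 CPM in Trap and 11.1 to 23.2 CPM in Input (-1.30 ± 0.082). Ndn, the MAGE-family protein necdin of postmitotic neurons, averaged 69.1 CPM in Trap and 188 CPM in Input (-1.44 ± 0.064). Each was thus depleted from the pull-down, but Plagl1 and Ndn by less than Peg3. Snrpn, which encodes the neuronal splicing protein SmN, averaged 133 CPM in Trap and 780.4 CPM in Input, with a log2 difference of -2.55 ± 0.059. Part of that locus is counted with other gene models: 27.3% of its exon bases are shared with Gm38393, which reached 26 counts in a Trap library and 367 in an Input library.

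Of the noncoding pair, Rian was depleted further than these and Meg3 about as much as Snrpn. Rian, a host of small nucleolar RNAs and microRNAs, averaged 9.94 CPM in Trap and 125 CPM in Input, 12.6-fold lower in Trap (log2 -3.66 ± 0.10). Meg3 averaged 92.7 ± 55.8 CPM in Trap (SD, n = 24) and 529 ± 148 CPM in Input (SD, n = 8), a log2 difference of -2.55 ± 0.21, the widest error among the members. Of the growth-factor genes, Grb10, an adaptor that binds and restrains the insulin and IGF1 receptors, was 14.2-fold lower, with 3.41 CPM in Trap and 48.4 CPM in Input (log2 -3.83 ± 0.086). Igf2, the growth factor itself, had 0.490 to 2.05 CPM in Trap and 6.80 to 9.67 CPM in Input (-2.79 ± 0.12), and rested on 10 to 41 counts in a Trap library. It shares 62.8% of its exon bases with Gm49394, which had at most 8 counts in a Trap library and 12 in an Input library. Impact (chromosome 18, 12955852 to 12992950, plus strand), which binds GCN1 and holds back the amino-acid sensor GCN2, was among the least depleted, with 93.7 CPM in Trap and 231 CPM in Input (-1.30 ± 0.042). The largest adjusted p among these 9 was 7.58e-12, for Meg3 (edgeR quasi-likelihood test, Benjamini-Hochberg).

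Scaled by exon length, the order of the levels differed between the fractions. In Trap, Nnat led with 210.1 ± 41.5 CPM per kb (SD, n = 24), then came Snrpn with 61.8 ± 7.64, Ndn with 18.7 ± 2.31, Impact with 18.3 ± 1.05, Meg3 with 5.13 ± 3.09 and Peg3 with 2.98 ± 0.916. Plagl1, Rian, Grb10 and Igf2 were all under 1 CPM per kb. Ndn and Impact were neighbours whose levels lay within each other's spread, and Peg3 lay within the wide spread of Meg3. In Input the leader was Snrpn with 361 ± 35.2 CPM per kb (SD, n = 8), followed by Ndn with 50.9 ± 8.14, Impact with 45.1 ± 6.06 and Nnat with 40.2 ± 8.34. Of these, Ndn and Impact lay within each other's spread, as did Impact and Nnat. The lowest in Input was again Igf2, with 1.45 CPM per kb.

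After fracture, Nnat in Trap was highest at 3 weeks and close to the uninjured level at 5 and 7 weeks. In males it had 449, 452 and 413 CPM at 3 weeks, against 336, 337 and 320.0 CPM in uninjured males. In females it had 568, 581 and 486 CPM at 3 weeks, against 316, 419 and 349 CPM in uninjured females. Within each sex the 3-week libraries were all above the uninjured ones, but over both sexes the groups overlapped, because uninjured female replicate 2 (419 CPM) exceeded 3-week male replicate 3 (413 CPM). The fitted log2 difference at 3 weeks was 0.50 ± 0.077 over both sexes, a 1.42-fold level, with 0.40 ± 0.11 in males and 0.60 ± 0.11 in females. This is the comparison that chose Nnat, so these values are a description, and the 0.111% of 15380 genes called in it are printed for scale only. Without the 2 libraries that stood apart, female 3 weeks replicate 3 and male 7 weeks replicate 2, the difference was 0.54.

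**Figure D2:**
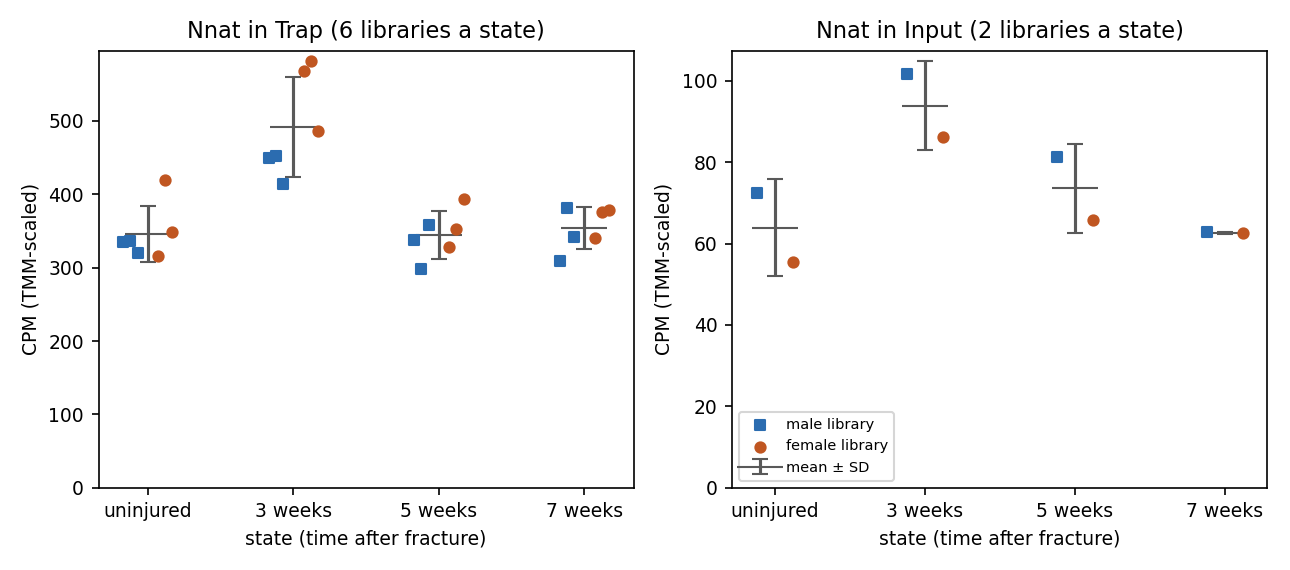
Nnat level in CPM in every library, by state and sex, with Trap and Input in separate panels. The 6 Trap libraries at 3 weeks run from 413 to 581 CPM and the 18 other Trap libraries from 298 to 419 CPM, and in Input both 3-week libraries are above both uninjured ones.

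At 5 weeks the Trap libraries had 337, 298 and 358 CPM in males and 328, 353 and 394 CPM in females. At 7 weeks they had 309.7, 381 and 342 CPM in males and 341, 376 and 379 CPM in females. Both times overlapped the uninjured range of 316 to 419 CPM. The log2 difference from uninjured libraries was -0.0025 ± 0.077 at 5 weeks (95% interval -0.15 to 0.15) and 0.035 ± 0.077 at 7 weeks (95% interval -0.12 to 0.19). Neither passed the test (adjusted p of 1.00 at 5 weeks and at 7 weeks, edgeR quasi-likelihood test, Benjamini-Hochberg), and 0% of the 15380 genes were called at either time. These intervals leave out a difference as large as that at 3 weeks, but the comparisons share their uninjured libraries with it. The levels at 5 and 7 weeks lay below those at 3 weeks by log2 differences of -0.50 and -0.47, again as a description.

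Input libraries are outside the Trap comparison on which Nnat was selected, but their values were known when it was, and they may come from the same homogenates, so they are not independent support. Nnat had 102 CPM in the male and 86.1 CPM in the female 3-week library, against 72.3 CPM in the uninjured male and 55.5 CPM in the uninjured female. It rose in Input at 3 weeks by a log2 difference of 0.54 ± 0.076, a 1.46-fold level (adjusted p = 0.00123, edgeR quasi-likelihood test, Benjamini-Hochberg), in a comparison that called 1.08% of 16803 genes. The call rests on few libraries: without the uninjured female library the difference was 0.45 with an adjusted p of 0.0731. At 5 weeks Nnat had 81.3 CPM in the male and 65.8 CPM in the female library (0.21 ± 0.078, adjusted p = 0.46, edgeR). At 7 weeks it had 62.8 and 62.5 CPM in the male and the female library (-0.0083 ± 0.079, adjusted p = 0.999, edgeR). Those comparisons called 0.107% of genes at 5 weeks and 0.214% at 7 weeks. The difference at 3 weeks in Trap minus that in Input was -0.06 ± 0.15 on the log2 scale (95% interval -0.35 to 0.23), given as a description.

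**Figure D3:**
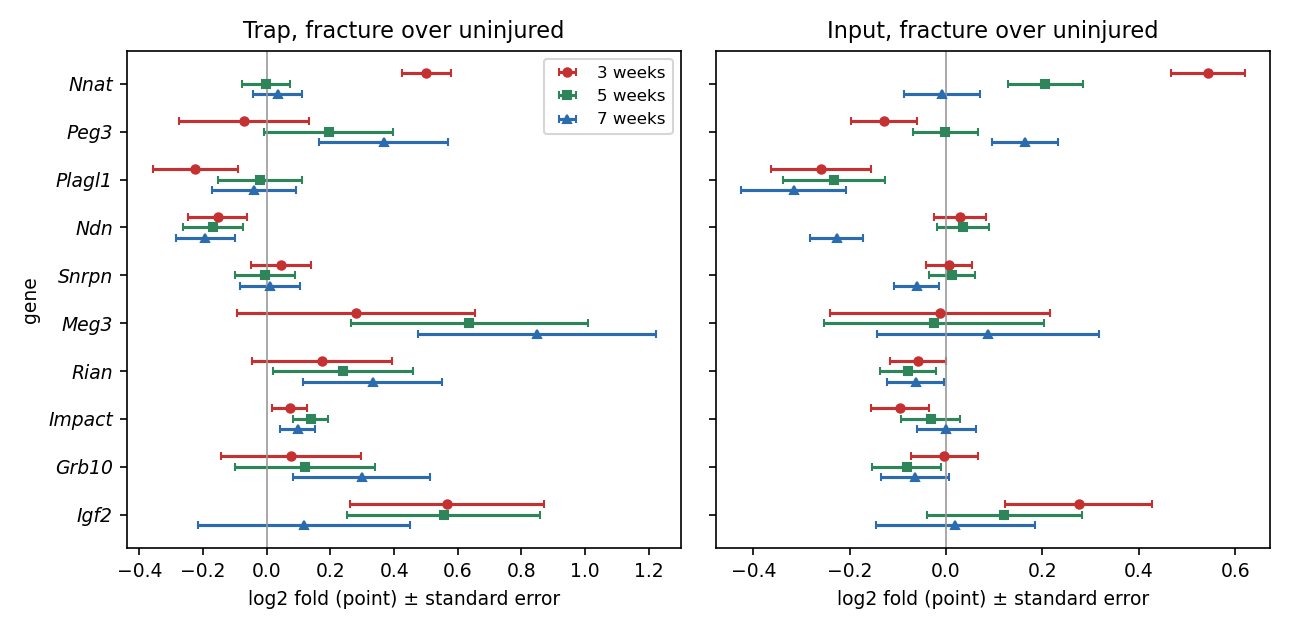
Log2 difference from uninjured libraries at 3, 5 and 7 weeks after fracture for the 10 genes, in Trap and in Input, with bars of 1 standard error of the fit. Nnat stands at 0.50 in Trap and 0.54 in Input at 3 weeks, and at later times in Trap it lies near 0, while Meg3 in Trap has the widest bars.

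Marker levels of other cells moved with some of these libraries. The summed level of the 6 precursor markers in Trap was 991 to 1340 CPM (median 1233) at 3 weeks, against 892 to 1098 CPM (median 1030) in uninjured libraries, with no marker at 0. Of the 6, 0 passed the test at 3 weeks (edgeR; 2 had an unadjusted p under 0.05, Olig1 and Olig2, beside 1329 of all 15380 genes). Olig1 differed by 0.22 ± 0.074 and Olig2 by 0.34 ± 0.16, but the list was mixed. Pdgfra had 0.17 ± 0.27, Vcan 0.0065 ± 0.29, Cspg4 -0.18 ± 0.16 and Gpr17 -0.47 ± 0.32. Summed neuron markers ran from 406 to 1264 CPM in Trap at 3 weeks, against 518 to 844 CPM in uninjured libraries, and 0 of 16 passed the test, with 0 under an unadjusted p of 0.05. Of the 12 astrocyte markers 1 was called in Trap at 3 weeks, lower than without injury. In Input the precursor sum ran from 348 to 427 CPM at 3 weeks, against 391 to 414 CPM without injury, and Gpr17 alone of the 6 was called, with -0.88 ± 0.091. All 11 microglia markers had positive differences in Input at 3 weeks, 1 of them called. The part of these cells in the Nnat values was not tested.

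None of the 9 other genes passed the test at 5 or 7 weeks in Trap, or at 3, 5 or 7 weeks in Input, where at most 1.08% of all genes did. At 3 weeks in Trap, as a description, their log2 differences ran from -0.22 for Plagl1 to 0.57 for Igf2. Igf2 had 0.816 to 2.05 CPM at 3 weeks, against 0.490 to 1.31 CPM in uninjured Trap libraries, an overlap at a level near the limit of counting. At 5 weeks they ran from -0.17 for Ndn to 0.64 for Meg3, with 1 unadjusted p under 0.05 (beside 425 of all 15380 genes). That gene was Impact, with 93.5 to 102 CPM at 5 weeks against 79.9 to 93.9 CPM without injury, and a log2 difference of 0.14 ± 0.055 (adjusted p = 1.00, edgeR). At 7 weeks the range was -0.19 for Ndn to 0.85 for Meg3, with 2 unadjusted p under 0.05, these same 2 genes (beside 438 of all 15380 genes). DESeq2 also called 0 of the 10 members at 5 weeks and at 7 weeks in Trap and in Input. In Input, edgeR gave an unadjusted p under 0.05 to 1 of the 9 at 3 weeks, 1 at 5 weeks and 3 at 7 weeks. Of all 16803 genes it gave such a p to 2341, 1427 and 986 at these times. Of the 9, Ndn at 7 weeks came nearest to a call with -0.23 ± 0.054 (adjusted p = 0.152, edgeR).

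Meg3 was the most variable member in Trap, with a coefficient of variation over the 24 libraries of 60.2%, against 5.72% for Impact and 12.3% to 38.8% for the others. Its Trap libraries had 37.2 to 128 CPM at 3 weeks (median 77.5), 51.1 to 177 CPM at 5 weeks (median 98.5) and 57.0 to 301 CPM at 7 weeks (median 92.0), against 49.9 to 107 CPM in uninjured libraries (median 61.1). The groups overlapped at each time. The log2 difference at 7 weeks was 0.85 ± 0.37 (adjusted p = 1.00, edgeR), and without female 7 weeks replicate 3, the library at 301 CPM, it was 0.49. Mirg, the microRNA host downstream of Rian, varied likewise between 0.128 and 1.75 CPM in Trap, and its differences at 5 weeks (1.55 ± 0.58) and 7 weeks (1.66 ± 0.58) rested on 2 to 37 counts in a library and did not pass the test.

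**Figure D4:**
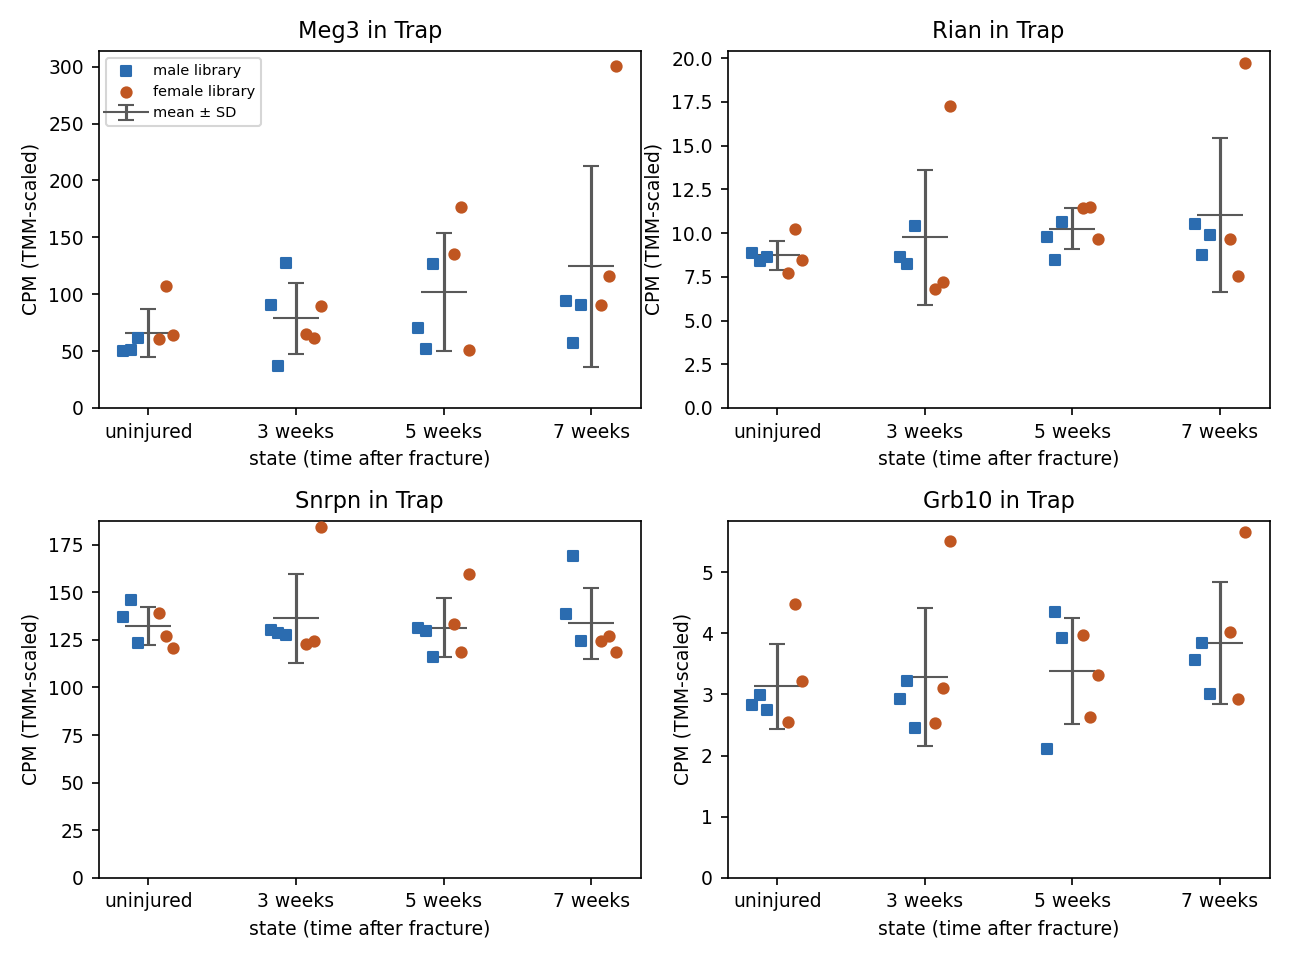
Levels of Meg3, Rian, Snrpn and Grb10 in the 24 Trap libraries by state and sex, in CPM. For Rian, female 3 weeks replicate 3 (17.2 CPM) and female 7 weeks replicate 3 (19.7 CPM) stand above the others. Female 7 weeks replicate 3 is highest for Meg3 (301 CPM) but low for Snrpn (119 CPM), where female 3 weeks replicate 3 is highest (184 CPM).

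Some of the depleted members ran together between Trap libraries and others did not. The correlation of log2 CPM over the 24 libraries was taken after removing the mean of each sex and state. It was 0.81 for Peg3 with Meg3, 0.69 for Peg3 with Rian and 0.64 for Meg3 with Rian. Rian with Grb10 had 0.63 and Ndn with Snrpn 0.54. Female 7 weeks replicate 3 stood above the other libraries of its state for Peg3, Meg3 and Rian, as did female 3 weeks replicate 3 for Rian and Grb10. The correlations were not computed without these libraries. At the other end the correlation was -0.46 for Ndn with Impact, -0.33 for Snrpn with Meg3 and -0.30 for Snrpn with Impact. Nnat had no such partner among the members, with residual correlations from -0.40 (Plagl1) to 0.03 (Grb10). The same residuals were set against an index of carry-over, which is the log2 level of markers of neurons, oligodendrocytes, microglia and endothelial cells less that of astrocyte markers. The correlation was 0.72 for Rian, 0.58 for Snrpn and 0.53 for Grb10, against 0.13 for Meg3 and -0.09 for Nnat. The libraries of a correlation share their preparation and depth, so these values are descriptions.

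Between the sexes, 0 of the 10 members differed without injury in Trap (male against female, edgeR, with 0 under an unadjusted p of 0.05, and 0 by DESeq2), where 0.039% of all genes were called. An unadjusted p under 0.05 was found there for 609 of all 15380 genes. Averaged over the 4 states, Nnat had a male against female log2 difference of -0.16 ± 0.054 in Trap, which did not pass the test (adjusted p = 0.296, edgeR), in a comparison that called 0.195% of genes. The male minus female difference in the effect of fracture at 3 weeks rests on the libraries that chose Nnat, so it is a description: it was -0.19 ± 0.15 for Nnat on the log2 scale and -0.25 to 0.74 for the other 9. The Trap minus Input difference at 3 weeks, likewise a description, was -0.19 to 0.32 for the other 9. Over all genes, 0% were called by edgeR in either comparison (398 of 15380 genes at an unadjusted p under 0.05 between the sexes and 532 of 17494 between the fractions), and nothing about the members is read from that.

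In Input the sexes differed widely, for 46.2% of 16803 genes, and a comparison added after these levels were seen called 8 of the 10 members. Peg3 had 157 to 197 CPM in the 4 male libraries and 255 to 295 CPM in the 4 female ones, a log2 difference of -0.70 ± 0.048. Plagl1 had 11.1 to 13.6 CPM in males and 18.2 to 23.2 CPM in females (-0.70 ± 0.077), and Impact 192 to 215 CPM in males and 249 to 272 CPM in females (-0.39 ± 0.043). Rian was also lower in male Input (-0.19 ± 0.042), as was Meg3, with 361 to 481 CPM in males and 585 to 709 CPM in females (-0.77 ± 0.16, adjusted p = 0.0339, edgeR). In the other direction, Ndn had 181 to 229 CPM in males and 146 to 172 CPM in females (0.32 ± 0.038), and Snrpn 789.8 to 894 CPM in males and 702 to 729 CPM in females (0.20 ± 0.034). Nnat was higher in the male library in 4 of 4 states, by 0.19 ± 0.055 (adjusted p = 0.0085, edgeR), although its ranges overlapped. Mitochondrially encoded genes took 4.03% to 4.91% of counts in male Input libraries and 5.93% to 6.14% in female ones, so sex and whatever else separates these libraries cannot be told apart. Leaving out 1 library at a time called 6 to 9 members. Nnat lost its call without the uninjured or 5 weeks library of either sex, and Meg3 without the uninjured, 3 weeks or 5 weeks library of either sex.

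**Figure D5:**
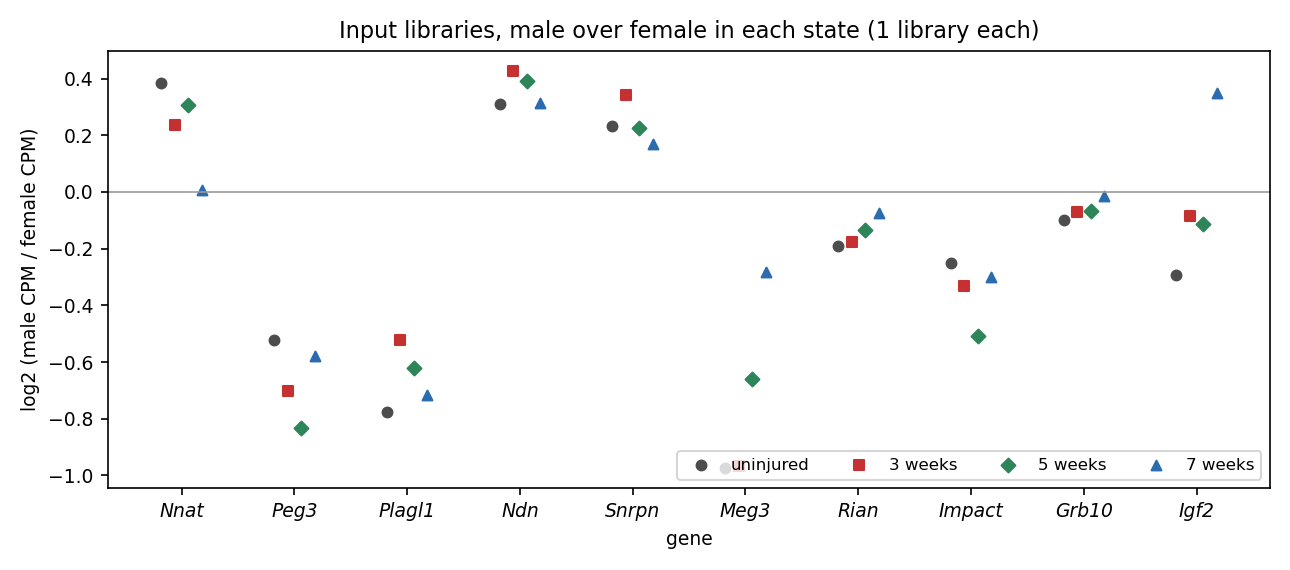
Log2 of the male over the female Input level for the 10 genes, with 1 point for each of the 4 states. Peg3, Plagl1, Meg3, Rian, Impact and Grb10 lie below 0 (lower in the male library) in all 4 states. Nnat, Ndn and Snrpn lie above 0 in all 4, and Igf2 lies above 0 in 1 of 4.

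A wider list of 62 other imprinted genes, written with earlier results known, shows how the members compare with their class. Of the 51 tested in Trap against Input, 11 were called higher and 34 lower in Trap, where 43.8% of all genes were higher and 44.2% lower. The median of their log2 differences was -1.26, against 0.01 over all genes tested. The lowest p-values among the lower genes belonged to Peg13 (-3.28 ± 0.067), Peg10 (-3.10 ± 0.071), Usp29 (-3.77 ± 0.088), Begain (-2.88 ± 0.069) and Dlk1 (-4.03 ± 0.098). Dlk1, the paternally expressed ligand upstream of Meg3, averaged 1.61 CPM in Trap and 26.3 CPM in Input. The genes higher in Trap with the lowest p-values were Pon2, a paraoxonase with 402 CPM in Trap and 57.2 CPM in Input (2.81 ± 0.049), the tetraspanin Cd81 with 2320 CPM in Trap and 418 CPM in Input (2.48 ± 0.056), Tssc4 (1.93 ± 0.075), Pon3 (2.13 ± 0.11) and Nap1l4 (0.66 ± 0.037). Nnat is thus among a minority of the listed genes that the pull-down enriched. Cd81, Tssc4 and Nap1l4 are on the list for maternal expression in placenta, so it does not mark them as imprinted in the cord. Snurf, which shares transcripts with Snrpn, was lower (-2.04 ± 0.13), while H19, the neighbour of Igf2, had 1.11 CPM in either fraction.

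At 3 weeks in Trap none of the 46 tested genes of the wider list passed the test (median log2 difference 0.01; edgeR called 0, with 3 at an unadjusted p under 0.05 beside 1329 of all 15380 genes, and DESeq2 0). Pon3 had the smallest p, with -0.32. Blcap, around Nnat, had 51.8 to 66.5 CPM at 3 weeks, against 42.2 to 59.9 CPM in uninjured Trap libraries, a log2 difference of 0.17 ± 0.078 that did not pass. In Input at 3 weeks 0 of 52 were called by edgeR, with 7 at an unadjusted p under 0.05 beside 2341 of all 16803 genes. Of the 52, Zdbf2 (-0.38, adjusted p = 0.0775, edgeR) and Mest (-0.38, adjusted p = 0.0953, edgeR) came nearest.

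The pathways in which the members act were divided between the fractions, and their counts are read against the 43.8% of all genes higher and 44.2% lower in Trap. Of the SERCA pump and its small regulators 5 genes were tested, and Nnat (2.38), Mrln (1.27 ± 0.35) and the pump gene Atp2a1 (0.44 ± 0.074) were higher in Trap, Atp2a3 was lower (-1.78 ± 0.16), and Atp2a2, the pump of most cells, did not differ past the test (0.09 ± 0.064). Of 17 IGF signalling genes, 6 were higher in Trap, led by the binding proteins Igfbp5 (2.70), Igfbp4 (3.11) and Igfbp2 (3.49) and including the receptors Insr (0.71) and Igf1r (0.57). The 10 lower ones included Grb10, its relative Grb14 (-2.97), and the ligands Igf2 and Igf1 (-3.08). The receptor gene Igf2r, on the wider imprinted list, was also lower in Trap (-1.22 ± 0.093). In the necdin and MAGE family 6 of 7 were lower in Trap, such as Magee1 (-2.47), Maged1 (-1.32) and the imprinted Magel2 (-4.14), and Mageh1 was higher (1.67). Of 14 factors that set or keep imprints, 5 were higher, among them the Polycomb genes Eed (0.63) and Ezh2 (0.80), and 5 lower, among them Zfp57 (-2.70), which binds methylated imprints, and the maintenance methyltransferase Dnmt1 (-1.07). Of 11 genes of the integrated stress response, in which Impact acts, 2 were higher, the kinase gene Eif2ak2 (2.30) and Eif2s1 (0.43), and 7 lower. At 3 weeks in Trap, Nnat apart, 0 genes of these 5 lists were called (edgeR, with 4 at an unadjusted p under 0.05 beside 1329 of all 15380 genes). Of these lists, Igfbp4 came nearest at -0.53 ± 0.13 (adjusted p = 0.113, edgeR).

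Over the 24 Trap libraries, the genes whose log2 CPM ran most like that of Nnat, among 12164 named genes with a mean of at least 1 CPM, were Col22a1 (Pearson r 0.79, Spearman rho 0.78), Mmd (0.79, rho 0.75), Dkk3 (0.79, rho 0.57), H2-Q4 (0.77, rho 0.71) and Gsr (0.76, rho 0.77). H2-Q4 belongs to a family of near-identical genes whose reads the counting may split. The least alike were Homer2 (-0.89), Dio2 (-0.81) and Extl1 (-0.81). Without female 3 weeks replicates 1 and 2, the libraries farthest from the median of Nnat, the 5 leading genes had r of 0.56 to 0.71. Around the means of each sex and state they had 0.34 to 0.57, and Homer2 had -0.80. These libraries share states and sexes, so the correlations describe them and carry no p.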

How the data were processed

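The authors deposited RSEM estimated counts per gene for 55938 genes and 32 libraries, of which 6.21% to 8.53% of the values in a library were not whole. Per the labels, libraries were made by poly-A selection. Per the submitters' processing notes, FastQC, Trim Galore, STAR, RSEM and GRCm38 were used. The sources used here give no versions, annotation or strand setting. Because RSEM splits reads among similar genes, overlapping gene models are uncertain. Symbols were matched for 55141 identifiers, and 797 had none.

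Counts were rounded, filtered with filterByExpr, scaled by TMM and tested in R 4.3.3 with edgeR 4.0.16 (robust glmQLFit, glmQLFTest, 2-sided), with Benjamini-Hochberg adjustment over all genes tested. A gene is called where its adjusted p is under 0.05. Trap comparisons used 1 fit of 24 libraries with a mean per sex and state. Trap against Input used 32 libraries with sex and state as terms, and Input 8 libraries with sex as a term (3 residual degrees of freedom). Trap minus Input used 32 libraries with state by fraction terms. Errors of log2 values are standard errors of the fit, and 95% intervals follow from them. CPM values use TMM over all libraries, and CPM per kb the exon length of GENCODE M21. Members, lists and tests were chosen with earlier results of these data known. All 10 members were measured in every comparison, but the text does not name each of them in all. From other lists it names mainly the genes with the smallest p. Promoters come from RefSeq (GRCm38.p6). The steps were tested on simulated data. The alternatives were DESeq2 1.42.0, its size factors, no filter, only the groups compared, a carry-over covariate, a replicate block, each library left out, and, added after the data were seen, leaving out both libraries that stood apart, a block within each sex and the Input sex comparison. Pairs of replicates differed beyond counting noise, with chi-square per degree of freedom of 7.65 to 94.8.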

Additional observations from a re-analysis of the deposited data

Results flagged for a closer look

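Of 40 sets of 6 Trap libraries (10 genes in 4 states), 10 had a library farther from the rest than Dixon's critical ratio allows. Its rate of 1 in 20, or 2 sets, holds for independent sets of normally distributed values. These sets are unlogged CPM of both sexes and share libraries between genes, so that rate does not measure chance here. Female 3 weeks replicate 3 was the far library for Snrpn at 184 CPM (the next had 130.3 CPM), Rian at 17.2 CPM and Grb10 at 5.51 CPM, and had the highest neuron marker sum in Trap, 1264 CPM. Female 7 weeks replicate 3, with 1054 CPM of neuron markers, was far for Meg3 at 301 CPM (the next had 116 CPM), Peg3 at 81.6 CPM and Rian at 19.7 CPM. Female uninjured replicate 2 was far for Nnat at 419 CPM (the next had 349 CPM), Meg3 at 107 CPM and Grb10 at 4.48 CPM. Male 7 weeks replicate 2 was far for Ndn at 88.7 CPM, against 66.3 CPM in the next. The part of other cells in these values was not tested.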

How the results depend on the processing

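Of 972 alternative values for 42 results, 926 were scored as the same. For a tested difference, this meant the same direction and side of the threshold. Counts of called genes had to stay within a set ratio and correlations within a set distance. Nnat at 3 weeks in Trap had to stay within its SD between replicates. Of the rest, 27 changed sign, all for Nnat at 5 or 7 weeks in Trap, where the difference is near 0. The others lost a call or moved past those limits. The log2 difference of Nnat, Trap 5 weeks against uninjured, was 0.00119 with DESeq2's size factors, 0.00159 with no filter, 0.00108 by DESeq2, 0.00177 with only the groups compared, 0.00648 with the carry-over covariate, 0.000548 with the replicate block and 0.00562 with the block within each sex, and -0.045 to 0.065 with each library left out. At 7 weeks it was -0.0017 without the 2 libraries that stood apart and -0.0072 to 0.10 with each library left out. Deviations from the sex and state means were correlated between fracture and uninjured Trap libraries. Those of the same replicate number had r from -0.04 to 0.15 over 18 pairs (median 0.04). Those of other numbers had r from -0.11 to 0.10. Of 18 fracture libraries, 10 were best with their own number among 3 candidates. Whether a replicate number marks a shared batch was not tested, and the block changed no call of a member. Members called in Input at 3 weeks numbered 0 to 1 with each library left out, where the lone sample of a state is assumed to vary like the others. The Meg3 sex difference in Input had an adjusted p of 0.0562 with no filter. Genes called over the whole table at 3 weeks in Trap numbered 17, but 34 with no filter, 44 with the replicate block, 77 with the block within each sex, 52 with the covariate, 106 without the 2 libraries and 141 by DESeq2, and 29.4% of the 17 and 61.3% of the 106 were higher. The cause was not tested. Nnat at 3 weeks stayed between 0.46 and 0.57 in these fits. Igf2 and Mirg in Trap are limited by counts as low as 10 and 2.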
